A study of Mus musculus with 18 samples.

Results

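The genes described here encode enzymes that remove superoxide and peroxides or keep protein thiols and glutathione reduced, together with 3 proteins that regulate them. They are a fixed list of 36 symbols looked up in a table of 55450 genes, and all 36 passed the filter that left 16270 genes for testing. RNA was sequenced from left ventricle (LV) of 18 male FVB/N mice, 4 or 5 per group. Wild type (WT) mice and littermates with cardiac-specific overexpression of Gαq, a G protein subunit that transmits hypertrophic signals, received control diet (CD) or chow with 0.5 mg/g of ertugliflozin (ERTU), which inhibits SGLT2, a transporter of glucose and sodium. Treatment began at 4 weeks of age and lasted 16 weeks, so that tissue was taken at 20 weeks. There were 4 WT CD, 5 Gαq CD, 5 WT ERTU and 4 Gαq ERTU hearts. The promoter of the transgene is not given in the sources used here.

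Superoxide formed by the respiratory chain is converted to hydrogen peroxide by superoxide dismutases. Peroxide is then removed by catalase, by glutathione peroxidases, which use glutathione, and by peroxiredoxins, which use thioredoxin. Glutathione and thioredoxin are returned to their reduced form with NADPH, in separate systems in the cytosol and in mitochondria. The transcription factor NRF2 (Nfe2l2), held in check by KEAP1, drives many of the cytosolic enzymes through the antioxidant response element. The members were sorted by the place of the protein into 6 mitochondrial enzymes, 13 cytosolic enzymes, 6 enzymes of several compartments or the peroxisome, 6 enzymes of the endoplasmic reticulum (ER) and membranes, 2 secreted enzymes and 3 regulators. NRF2-driven members are 9, of which 7 are also on the cytosolic list.

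Levels are counts scaled to library size (CPM) with factors from the trimmed mean of M values. Libraries are named by the number in the table, and values are listed in the order 1, 2, 4 and 5 for WT CD, 11 to 15 for WT ERTU, 6 to 10 for Gαq CD, and 16, 17, 18 and 20 for Gαq ERTU. Library totals ran from 15383566 to 20908363 counts. Gnaq ran from 45.5 to 229.7 CPM in WT and from 1641 to 11672 CPM in Gαq, where reads of the transgene and the endogenous gene are not separated. It averaged 7473 ± 3818 CPM (n = 5, SD) in Gαq CD. In Gαq ERTU it averaged 3216.5 ± 1371 CPM (n = 4, SD), and the ranges overlapped. Whether this difference bears on comparisons between diets in Gαq was not tested. In these bulk samples fewer cells of a type and less RNA per cell cannot be told apart. The 8 cardiomyocyte markers summed to 69507 to 100316 CPM in WT and 66296 to 88136 CPM in Gαq. By genotype 4 of 8 were called lower (9.92% of all genes). The 8 fibroblast markers summed to 1542 to 3149 CPM in WT and 2897 to 4389.7 CPM in Gαq. Of these 6 of 8 were called higher (9.72% of all genes). None of these markers was at 0 in any group. Libraries 4, 7, 8 and 9, all on CD, stood apart in Pdk4, the kinase that restrains glucose oxidation, with 105 to 261 CPM against 1308 to 6869 CPM in the other 14. Libraries 5, 8, 14 and 20 had the highest summed atrial markers of their groups (363 to 969 CPM). Calls of members that changed without either set of libraries are given beside the results.

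Gαq and WT hearts were compared with diet as a term in the model, to ask how Gαq overexpression changed each gene. All 6 mitochondrial and 5 of 9 NRF2-driven members were lower in Gαq hearts, while the ER peroxidases Gpx8 and Prdx4 and the secreted glutathione peroxidase Gpx3 were higher. At an adjusted p under 0.05 in edgeR's quasi-likelihood test, 19 of 36 members were called (52.8%), against 19.6% of all genes tested. Of these, 15 were lower, where 9.92% of all genes were called lower, and 4 were higher, where 9.72% of all genes were called higher. The median log2 change of the members was -0.14, and that of all genes was 0.00. The largest falls were those of the quinone reductase Nqo1, the mitochondrial transhydrogenase Nnt and the glutamate-cysteine ligase modifier Gclm. The largest rises were those of Gpx3, Gpx8, Gpx1 and Prdx4. In 5 members (Sod2, Nnt, Txnrd1, Nqo1 and Msra) every Gαq library was below every WT library (1.83% of all genes). No member had every Gαq library above every WT library (1.73% of all genes). Without the 4 libraries with low Pdk4, 13 members were called, and 14.4% of all genes were. Without the libraries with the highest atrial markers 17 members were called, and 17.8% of all genes were.

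**Figure D1:**
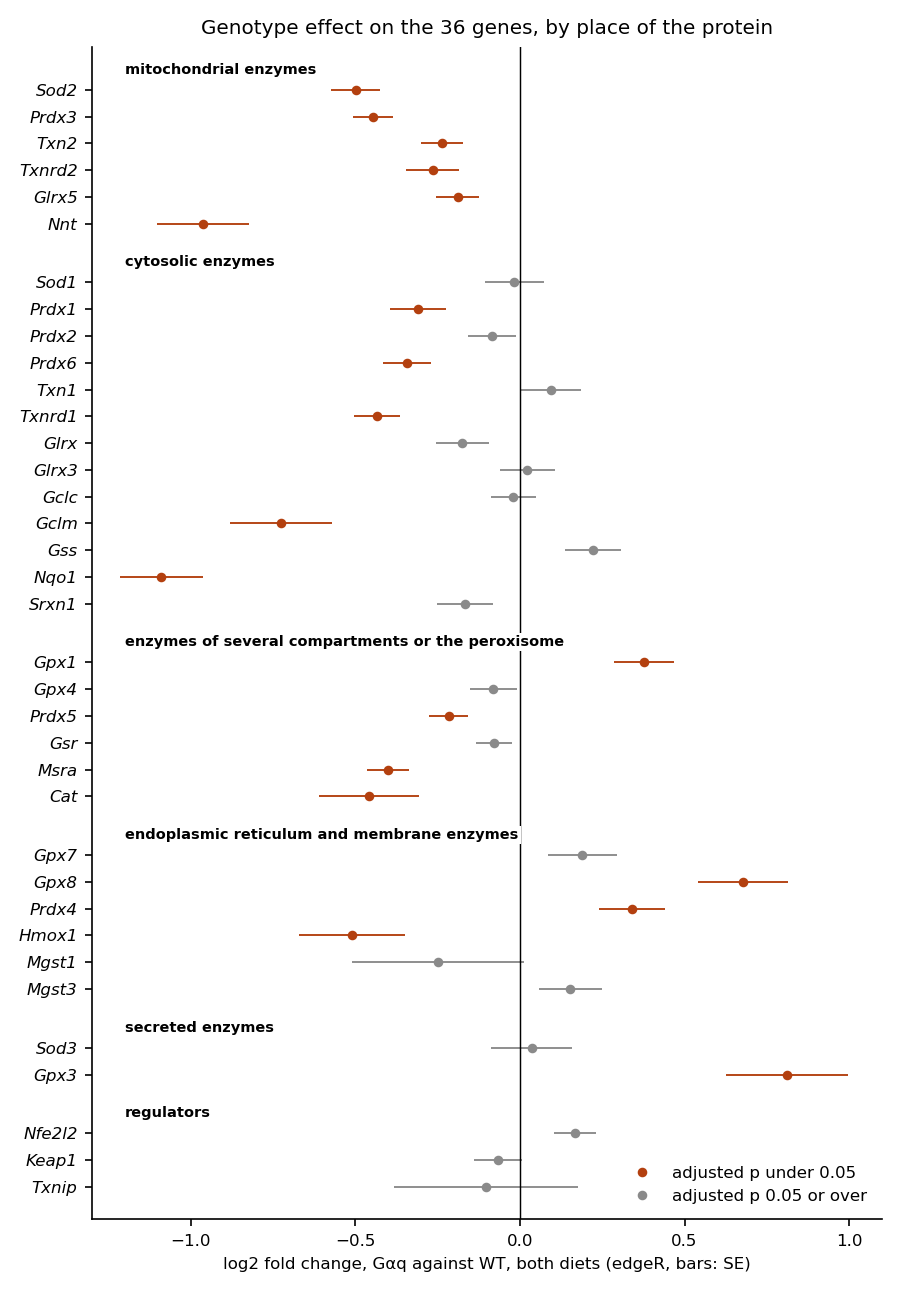
The x axis is the log2 fold change of Gαq against WT over both diets, with bars for the SE, and the 36 genes are grouped on the y axis by the place of the protein. All 6 mitochondrial enzymes lie to the left of 0, from -0.96 (Nnt) to -0.19 (Glrx5), and the 4 called rises are Gpx1, Gpx8, Prdx4 and Gpx3.

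All 6 mitochondrial enzymes were called lower by genotype (9.92% of all genes were), with a median log2 change of -0.36. Sod2 (ENSMUSG00000006818, chr17:13006846-13040063), the manganese superoxide dismutase of the matrix, led the abundant members of this group. Sod2 stood at 711, 713, 684 and 529 CPM in WT CD, 734, 718, 658, 584 and 734 in WT ERTU, 525, 468, 493, 472 and 458 in Gαq CD, and 503, 509, 452 and 407 in Gαq ERTU. The highest Gαq library (525 CPM) was just under the lowest WT library (529 CPM, library 5), and the groups did not overlap. The log2 fold change was -0.50 ± 0.07 (SE), adjusted p = 4.51e-05. Prdx3 (ENSMUSG00000024997, chr19:60864051-60874556), the main mitochondrial peroxiredoxin, fell by a like amount. Prdx3 stood at 365, 385, 366 and 302 CPM in WT CD, 357, 371, 379, 427 and 383 in WT ERTU, 280.2, 259, 303, 254 and 276 in Gαq CD, and 268, 261, 267 and 271 in Gαq ERTU. Gαq library 8 was the only Gαq library to reach the WT range, which starts at 302 CPM in library 5. Its log2 fold change was -0.45 ± 0.06 (SE), adjusted p = 2.19e-05.

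Nnt (ENSMUSG00000025453, chr13:119335448-119408997), which makes mitochondrial NADPH from NADH, had the largest fall in this group. Nnt stood at 5.36, 9.40, 6.83 and 6.40 CPM in WT CD, 8.99, 6.41, 5.87, 6.03 and 6.06 in WT ERTU, 3.69, 3.58, 2.20, 2.44 and 3.70 in Gαq CD, and 3.59, 4.27, 3.95 and 3.86 in Gαq ERTU. The lowest WT library was above the highest Gαq library. The log2 fold change was -0.96 ± 0.14 (SE), adjusted p = 3.77e-05. These levels rest on 41 to 165 reads per library, and 47.4% of the annotated exon bases of Nnt are shared with an overlapping gene of the same name on the same strand, listed at 0 in every library. By default the counter leaves reads over shared exons unassigned, so the level of Nnt may be too low and its change is uncertain.

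Changes in the mitochondrial thioredoxin system were nearer to 0. Txn2, the mitochondrial thioredoxin, is kept reduced by Txnrd2. Txn2 stood at 229, 213, 234 and 173 CPM in WT CD, 225, 226, 227, 202 and 212 in WT ERTU, 193, 164, 193, 178 and 188 in Gαq CD, and 201, 166, 186 and 176 in Gαq ERTU. The ranges overlapped, with 8 of 9 WT libraries above every Gαq library (-0.24 ± 0.06 (SE), adjusted p = 0.0119). Txnrd2 stood at 46.7, 48.0, 41.0 and 39.5 CPM in WT CD, 56.9, 45.8, 46.1, 41.3 and 39.4 in WT ERTU, 39.5, 31.0, 29.0, 36.6 and 40.0 in Gαq CD, and 43.0, 41.1, 38.8 and 35.2 in Gαq ERTU. Here 5 of 9 Gαq libraries were below every WT library (-0.27 ± 0.08 (SE), adjusted p = 0.0247). Glrx5, a glutaredoxin needed for iron-sulfur clusters, changed least in this group. Glrx5 was 94.6, 78.5, 99.98 and 76.9 CPM in WT CD, 89.5, 92.1, 95.7, 80.7 and 90.7 in WT ERTU, 85.3, 79.0, 67.5, 78.2 and 81.7 in Gαq CD, and 85.5, 73.9, 74.1 and 75.0 in Gαq ERTU. Its groups overlapped, and 4 of 9 Gαq libraries were below every WT library (-0.19 ± 0.07 (SE), adjusted p = 0.0452). Glrx5 was not called without library 1, 4, 7, 8, 9, 11, 12, 13, 15, 17, 18 or 20 (adjusted p from 0.0571 to 0.111), and Txnrd2 was not called without library 1, 2 or 20 (adjusted p from 0.0540 to 0.0570). Without the 4 libraries with low Pdk4, 3 of the 6 mitochondrial enzymes (Sod2, Prdx3 and Nnt) were called, and 14.4% of all genes were. Without the libraries with the highest atrial markers 5 of 6 were (17.8% of all genes), and Txnrd2 was not (adjusted p = 0.0513).

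**Figure D2:**
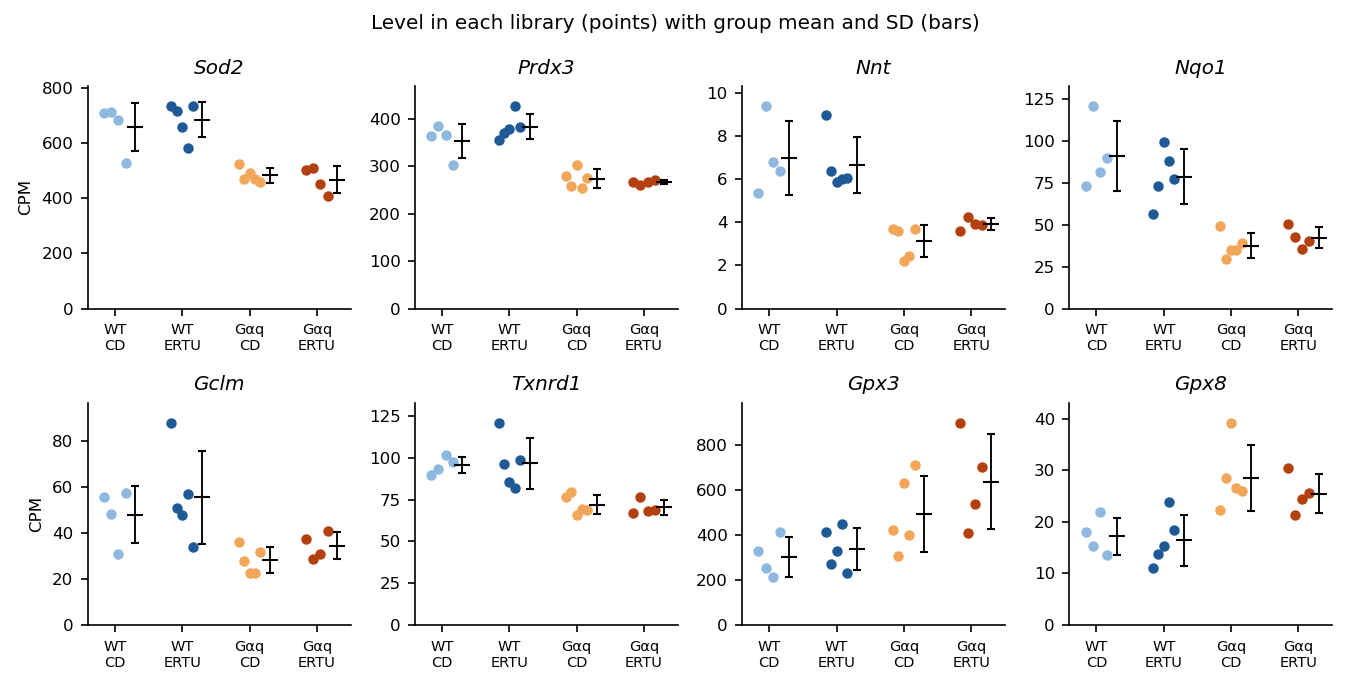
Each panel gives the CPM of 1 gene (linear axis from 0) in each library, with a bar for the group mean and SD. Sod2, Nnt, Nqo1 and Txnrd1 show no overlap between WT and Gαq libraries, while Gclm, Gpx3 and Gpx8 overlap in part.

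Other mitochondrial genes were lower too. Of 12 reference genes for mitochondrial content and respiration, 10 were called lower by genotype (9.92% of all genes) and none higher (9.72% of all genes). Their median log2 change was -0.36, beside -0.36 for the 6 antioxidant enzymes. The largest falls were Uqcrc1, a subunit of complex III (-0.63 ± 0.09 (SE), adjusted p = 4.82e-05), Sdha, a subunit of complex II (-0.57 ± 0.07 (SE), adjusted p = 7.48e-06), and citrate synthase Cs (-0.52 ± 0.09 (SE), adjusted p = 0.000396). The mean log2 CPM of the 6 enzymes minus that of the 12 reference genes was -2.77 ± 0.04 (n = 4, SD) in WT CD, -2.82 ± 0.06 (n = 5, SD) in WT ERTU, -2.86 ± 0.06 (n = 5, SD) in Gαq CD and -2.83 ± 0.02 (n = 4, SD) in Gαq ERTU. These ranges overlap. Beside them stand the sums of cardiomyocyte markers given above, whose ranges overlapped and whose part in the result was not tested. Of these 8 markers, 4 were called lower by genotype and 2 had a change above 0. Myh6 made up much of the sum, with 31625 to 52851 CPM in WT and 25032 to 43736 CPM in Gαq.

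A list of 8 genes linked to NADPH supply in mitochondria, not all of which form NADPH themselves, was also counted. By genotype 4 were called lower (9.92% of all genes) and 2 higher (9.72% of all genes). Nadk2, the mitochondrial NAD kinase, fell from 97.7 ± 12.6 CPM (n = 4, SD) in WT CD to 48.9 ± 8.90 CPM (n = 5, SD) in Gαq CD (genotype log2 fold change -0.93 ± 0.08 (SE), adjusted p = 1.16e-07). Idh2, the NADP-dependent isocitrate dehydrogenase of the matrix, was also lower (-0.52 ± 0.09 (SE), adjusted p = 0.000164). Mthfd2, an enzyme of the mitochondrial folate pathway, rose from 3.23 ± 1.11 CPM (n = 4, SD) to 13.6 ± 2.16 CPM (n = 5, SD) on CD (genotype 1.77 ± 0.17 (SE), adjusted p = 2.76e-07).

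Of the 13 cytosolic enzymes, 5 were called lower and none higher, and the median log2 change was -0.17. Of all genes tested, 9.92% were called lower and 9.72% higher. Nqo1 (ENSMUSG00000003849, chr8:107388225-107403206), an NADPH-dependent quinone reductase and a standard readout of NRF2, had the largest fall of all 36 members. Nqo1 stood at 73.0, 121, 81.3 and 89.8 CPM in WT CD, 56.1, 73.0, 99.6, 87.7 and 77.0 in WT ERTU, 49.4, 29.4, 35.2, 34.6 and 39.3 in Gαq CD, and 50.3, 42.7, 35.2 and 40.4 in Gαq ERTU. Every Gαq library was below the lowest WT library (56.1 CPM, library 11). The fall was 2.13-fold, with a log2 fold change of -1.09 ± 0.13 (SE), adjusted p = 2.78e-06. Txnrd1, the cytosolic thioredoxin reductase, was also lower in every Gαq library. Txnrd1 was 90.0, 93.4, 101 and 97.7 CPM in WT CD, 121, 96.4, 85.6, 82.0 and 98.4 in WT ERTU, 76.5, 79.7, 65.8, 69.4 and 68.5 in Gαq CD, and 67.3, 76.7, 68.2 and 69.0 in Gαq ERTU. The ranges did not meet (65.8 to 79.7 CPM in Gαq, 82.0 to 121 CPM in WT), with a log2 fold change of -0.43 ± 0.07 (SE), adjusted p = 0.000114.

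Glutathione is made in 2 steps, by glutamate-cysteine ligase (catalytic subunit Gclc, modifier subunit Gclm) and then by Gss. The modifier subunit was called and the catalytic subunit was not, a difference that was not tested. Gclm stood at 55.6, 48.4, 30.7 and 57.7 CPM in WT CD, 88.2, 50.8, 48.1, 57.0 and 33.9 in WT ERTU, 36.02, 28.0, 22.9, 22.7 and 31.7 in Gαq CD, and 37.5, 28.9, 30.7 and 41.2 in Gαq ERTU. The groups overlapped, with WT library 4 (30.7 CPM) and WT library 15 (33.9 CPM) inside the Gαq range. Its genotype change was -0.73 ± 0.15 (SE), adjusted p = 0.00188. Gclc ran at 26.4, 25.9, 23.6 and 28.8 CPM in WT CD, 28.3, 27.8, 22.4, 23.7 and 22.8 in WT ERTU, 28.9, 26.9, 26.4, 24.9 and 21.7 in Gαq CD, and 26.1, 23.9, 23.1 and 25.5 in Gαq ERTU. All values lay between 21.7 and 29.0 CPM, and no change was called (-0.02 ± 0.07 (SE), adjusted p = 0.868). Gss was 24.6, 25.6, 23.6 and 21.3 CPM in WT CD, 27.1, 24.4, 24.4, 25.8 and 24.7 in WT ERTU, 30.5, 19.6, 25.8, 22.8 and 31.9 in Gαq CD, and 36.7, 28.1, 31.2 and 29.1 in Gαq ERTU. Gss was above every WT library in 6 of 9 Gαq libraries and below every one in library 7, and its change of 0.22 ± 0.09 (SE), adjusted p = 0.0760 was not called. It was called only without library 7 (adjusted p 0.0158) and without the 4 libraries with low Pdk4.

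Of the cytosolic peroxiredoxins, Prdx1, which uses thioredoxin (-0.31 ± 0.08 (SE), adjusted p = 0.0123), and Prdx6, which uses glutathione (-0.34 ± 0.07 (SE), adjusted p = 0.00191), were lower. Prdx1 was 236 ± 15.8 CPM (n = 4, SD) in WT CD and 203 ± 24.3 CPM (n = 5, SD) in Gαq CD. Prdx6 was 224 ± 18.1 CPM (n = 4, SD) in WT CD and 174 ± 19.2 CPM (n = 5, SD) in Gαq CD. Prdx2, also abundant in red blood cells, was not called (-0.08 ± 0.07 (SE), adjusted p = 0.464). Srxn1, the sulfiredoxin that repairs overoxidised peroxiredoxins, was not called. Srxn1 stood at 30.7, 30.0, 40.4 and 32.5 CPM in WT CD, 45.5, 33.5, 29.9, 38.0 and 31.2 in WT ERTU, 30.8, 31.2, 36.4, 31.3 and 31.1 in Gαq CD, and 30.0, 28.0, 27.4 and 31.8 in Gαq ERTU. Apart from WT libraries 11, 4 and 14 (38.0 to 45.5 CPM), all values fell between 27.4 and 36.4 CPM (-0.17 ± 0.08 (SE), adjusted p = 0.182). Sod1, the copper-zinc superoxide dismutase, stood at 170.5 ± 15.1 CPM (n = 4, SD) in WT CD and 163 ± 25.1 CPM (n = 5, SD) in Gαq CD (-0.02 ± 0.09 (SE), adjusted p = 0.923). The remaining cytosolic members, thioredoxin (Txn1) and the glutaredoxins Glrx and Glrx3, had log2 changes from -0.17 to 0.09 and were not called. Glrx was called lower without the libraries with the highest atrial markers, with a log2 change of -0.27 (adjusted p = 0.0375).

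NRF2-driven members were then counted as a group. Of 9 members, 5 were called lower (Nqo1, Gclm, Hmox1, Txnrd1 and Prdx1) and none higher, with a median log2 change of -0.31. Txn1, Gsr, Gclc and Srxn1 were not called. Among the 27 other members, 10 were lower and 4 higher, with a median of -0.08. Of all genes tested, 19.6% were called, 9.92% lower and 9.72% higher. Of 19 further NRF2 targets tested, with 7 changes above 0 and a median of -0.09, 4 were called lower and none higher. Without the libraries with the highest atrial markers 4 were lower and 2 higher (17.8% of all genes called). Without the 4 libraries with low Pdk4, 3 were lower and none higher (14.4% of all genes called). Among the targets called in the fit of all libraries, the largest changes were in Gsta1, Me1 and Gsta4. Gsta1, a glutathione transferase, changed by -2.63 ± 0.37 (SE), adjusted p = 2.43e-05. Its level was 1.01 ± 0.429 CPM (n = 4, SD) in WT CD and 0.126 ± 0.102 CPM (n = 5, SD) in Gαq CD. No Gαq library was above 0.246 CPM, which is near the floor. Gsta1 thus passed the filter on low counts through the WT libraries, and the size of its fall is uncertain. The NADPH-forming malic enzyme Me1 changed by -0.56 ± 0.08 (SE), adjusted p = 1.99e-05, and Gsta4 by -0.40 ± 0.08 (SE), adjusted p = 0.000843.

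The antioxidant response element has the core TGACNNNGC. Promoter windows from RefSeq (build GRCm38.p6, 250 bases before to 50 after a start) were held for 29 of the 36 members, in 36 windows, and were searched for this core on both strands. A match was found in 7 of these windows (19.4%), against 12.4% of all 32851 windows. The members were the NRF2-driven Gclm, Txnrd1, Prdx1 and Srxn1, with Sod1, Mgst1 and Nfe2l2 itself. The window of Nqo1 held no match to these letters. Of the 6 NRF2-driven members with a window 4 had a match, and of the 23 others 3 did. Of all genes with a window, 14% had a match in at least 1 window. Among members called by genotype 3 of 15 had a match, and among the others 4 of 14. The stretches of 3 NRF2-driven members that were lower, and of the regulator, are shown 5′ to 3′ on the strand of the gene with the core in capitals. They lie at chr3:122245403-122245451 (Gclm, + strand), chr10:82859094-82859142 (Txnrd1, + strand, 1 of 3 windows), chr4:116685446-116685494 (Prdx1, + strand) and chr2:75704875-75704913 (Nfe2l2, - strand).
Gclm: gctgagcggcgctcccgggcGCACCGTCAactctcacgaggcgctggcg
Txnrd1: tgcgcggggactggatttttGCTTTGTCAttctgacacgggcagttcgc
Prdx1: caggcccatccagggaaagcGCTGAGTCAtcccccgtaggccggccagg
Nfe2l2: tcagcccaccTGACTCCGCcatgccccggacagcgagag
In Gclm, Txnrd1 and Prdx1 the core reads on the opposite strand, 126, 84 and 125 bases before the start at its near end, and in Nfe2l2 it reads on the gene's strand, 232 bases before it. The core of Prdx1 overlaps a match to TGACTCA, the AP-1 element, which is in 5.2% of all windows. A match describes letters and not binding.

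The regulators themselves were not called by genotype. Nfe2l2 is turned over by the ubiquitin ligase adaptor KEAP1, so that its activity need not follow its mRNA. Nfe2l2 stood at 77.6, 71.7, 71.9 and 79.2 CPM in WT CD, 89.9, 89.1, 93.7, 91.0 and 73.5 in WT ERTU, 92.2, 83.2, 105, 85.3 and 82.1 in Gαq CD, and 88.0, 95.96, 91.6 and 94.1 in Gαq ERTU. On CD the values ran from 82.1 to 105 CPM in Gαq and from 71.7 to 79.2 CPM in WT, while the ERTU groups overlapped. The share of all genes that separate in this way on CD is not given here, so no weight is put on it. The genotype change was 0.17 ± 0.06 (SE), adjusted p = 0.0721. The Wald test of DESeq2 called it (adjusted p = 0.0467), while limma and edgeR with median-of-ratios size factors did not. Keap1 was 71.7, 72.3, 66.6 and 77.2 CPM in WT CD, 84.7, 78.5, 73.3, 66.8 and 69.3 in WT ERTU, 74.2, 61.5, 50.6, 69.6 and 74.0 in Gαq CD, and 77.8, 73.6, 73.4 and 71.5 in Gαq ERTU. The groups overlapped, and library 8 was lowest (-0.07 ± 0.07 (SE), adjusted p = 0.567). Txnip, the thioredoxin-binding arrestin, is described with the diet effect.

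Catalase (Cat), the peroxidase of peroxisomes, varied widely. Cat stood at 416, 497, 257 and 438 CPM in WT CD, 553, 411, 431, 457 and 308 in WT ERTU, 343, 196, 199, 219.8 and 391 in Gαq CD, and 407, 327, 312 and 318 in Gαq ERTU. The 3 lowest values were those of Gαq CD libraries 7, 8 and 9, followed by WT CD library 4, and the groups overlapped. Its genotype change was -0.46 ± 0.15 (SE), adjusted p = 0.0358. Cat was not called without library 1, 2, 5, 7, 8, 9, 11, 17, 18 or 20 (adjusted p from 0.0520 to 0.0850). Without the 4 libraries with low Pdk4 the adjusted p was 0.056, and without those with the highest atrial markers 0.178.

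Msra, a methionine sulfoxide reductase of mitochondria and cytosol, separated the genotypes. Msra stood at 52.0, 60.3, 60.3 and 53.0 CPM in WT CD, 59.2, 53.3, 54.7, 53.8 and 53.0 in WT ERTU, 49.7, 38.5, 45.3, 43.0 and 40.4 in Gαq CD, and 46.9, 42.6, 36.4 and 37.8 in Gαq ERTU. The lowest WT library (52.0 CPM) was above the highest Gαq library (49.7 CPM), with a log2 fold change of -0.40 ± 0.06 (SE), adjusted p = 0.000112. Gpx1, the most general glutathione peroxidase, was higher in Gαq. Gpx1 stood at 77.2, 59.6, 72.8 and 75.3 CPM in WT CD, 79.2, 65.2, 79.1, 83.8 and 57.8 in WT ERTU, 88.8, 80.5, 116, 83.6 and 96.8 in Gαq CD, and 104, 73.8, 97.95 and 101 in Gαq ERTU. The groups overlapped, with 6 of 9 Gαq libraries above every WT library (0.38 ± 0.09 (SE), adjusted p = 0.00530). Prdx5 was lower, 395 ± 33.7 CPM (n = 4, SD) in WT CD and 343 ± 27.7 CPM (n = 5, SD) in Gαq CD (-0.22 ± 0.06 (SE), adjusted p = 0.0118), and was not called without the 4 libraries with low Pdk4 (adjusted p = 0.113). Gsr, which regenerates glutathione (-0.08 ± 0.06 (SE), adjusted p = 0.351), and Gpx4, which reduces lipid peroxides in membranes (-0.08 ± 0.07 (SE), adjusted p = 0.470), were not called.

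Of the 3 ER peroxidases, Gpx8 and Prdx4 were higher in Gαq. Gpx8, of the ER membrane, had the larger rise. Gpx8 stood at 17.9, 15.4, 21.9 and 13.6 CPM in WT CD, 10.97, 13.8, 15.2, 23.8 and 18.4 in WT ERTU, 22.3, 28.4, 39.2, 26.5 and 25.9 in Gαq CD, and 30.5, 21.3, 24.4 and 25.6 in Gαq ERTU. The groups met only in Gαq library 17, at 21.3 CPM, and library 6, at 22.3 CPM, which lay within the WT range that WT libraries 4 and 14 extended. Its log2 fold change was 0.68 ± 0.14 (SE), adjusted p = 0.00111. Prdx4, the ER peroxiredoxin, was 16.3 ± 1.45 CPM (n = 4, SD) in WT CD and 21.5 ± 2.90 CPM (n = 5, SD) in Gαq CD, a change of 0.34 ± 0.10 (SE), adjusted p = 0.0204 that was not called without the 4 libraries with low Pdk4 (adjusted p = 0.131). Gpx7, of the ER lumen, was not called (0.19 ± 0.11 (SE), adjusted p = 0.231).

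Gpx3, the secreted glutathione peroxidase of plasma and matrix, had the largest rise of the 36 members. Gpx3 was 332, 253, 213 and 415 CPM in WT CD, 413, 269.7, 331, 448 and 231 in WT ERTU, 424, 307, 632, 399 and 711 in Gαq CD, and 901, 411, 537 and 705 in Gαq ERTU. The groups overlapped, 5 of 9 Gαq libraries were above every WT library, and library 16 was highest. The rise was 1.75-fold, with a log2 fold change of 0.81 ± 0.19 (SE), adjusted p = 0.00324. Sod3, the extracellular superoxide dismutase, was not called (0.04 ± 0.12 (SE), adjusted p = 0.876). The higher sum of fibroblast markers in Gαq, with a median log2 change of 0.61 over 8 markers, stands beside these rises of Gpx8, Prdx4 and Gpx3, and its part in them was not tested.

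Haem oxygenase 1 (Hmox1), which breaks down haem in the ER membrane, went the other way. Hmox1 stood at 25.7, 20.1, 15.2 and 27.2 CPM in WT CD, 42.0, 26.0, 24.2, 17.2 and 16.3 in WT ERTU, 20.7, 13.3, 17.3, 12.8 and 17.9 in Gαq CD, and 17.1, 14.4, 15.9 and 19.2 in Gαq ERTU. WT ERTU library 11 was highest and the groups overlapped. The log2 fold change was -0.51 ± 0.16 (SE), adjusted p = 0.0290. Hmox1 was not called without library 1, 5, 7, 17 or 18 (adjusted p from 0.0508 to 0.0594), without the libraries with low Pdk4 (adjusted p = 0.0648) or without those with the highest atrial markers (adjusted p = 0.0507). The membrane glutathione transferases Mgst1 (-0.25 ± 0.26 (SE), adjusted p = 0.557) and Mgst3 (0.15 ± 0.09 (SE), adjusted p = 0.287) were not called.

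Of all genes tested, 19.6% were called by genotype, 9.92% lower and 9.72% higher. A list of other thiol redox genes gave 5 calls by genotype among 19 tested, 3 lower and 2 higher. Their median log2 change was -0.02. The largest were the fall of Gstk1, a glutathione transferase of mitochondria and peroxisomes (-0.78 ± 0.10 (SE), adjusted p = 5.82e-06), the rise of Txndc5, a disulfide isomerase of the ER (0.35 ± 0.09 (SE), adjusted p = 0.00918), and the fall of Txnrd3, a thioredoxin-glutathione reductase (-0.30 ± 0.09 (SE), adjusted p = 0.0174).

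Mitochondrial and cytosolic enzymes were then set against each other in each library, as the mean log2 CPM of the 6 mitochondrial enzymes minus that of the 13 cytosolic enzymes. This difference was 0.43 ± 0.08 (n = 4, SD) in WT CD, 0.44 ± 0.10 (n = 5, SD) in WT ERTU, 0.23 ± 0.08 (n = 5, SD) in Gαq CD and 0.25 ± 0.14 (n = 4, SD) in Gαq ERTU. On CD the WT libraries (0.32 to 0.49) were above the Gαq libraries (0.09 to 0.30), and on ERTU the ranges overlapped (0.30 to 0.53 and 0.12 to 0.43). Gαq minus WT was -0.21 between the CD means and -0.19 between the ERTU means. Part of this rests on Nnt, whose change is uncertain, as given above. Nnt changed by -1.16 (log2) on CD and -0.77 on ERTU. The other mitochondrial enzymes changed by -0.45 to -0.16 on CD and -0.55 to -0.22 on ERTU. The mean of the cytosolic enzymes changed by -0.23 on CD and -0.23 on ERTU, inside both of these ranges. With Nnt included, the mean of the mitochondrial enzymes changed by -0.44 and -0.42. A difference without Nnt is not given here. When medians of the levels were taken over the enzymes the sign of Gαq minus WT turned, to 0.32 and 0.24. Such a median depends on which enzyme stands in the middle. By group means, the middle cytosolic enzyme was Txn1 in WT CD (73.0 CPM) and Glrx3 in Gαq CD (50.5 CPM). Medians of the log2 changes by genotype were -0.36 for mitochondrial and -0.17 for cytosolic enzymes. When the 7 NRF2-driven enzymes were left out of the cytosolic list the differences were -0.37 and -0.36, since the 6 other cytosolic enzymes had a median log2 change by genotype of -0.05. Between diets the means differed by 0.00 in WT and 0.02 in Gαq. These are descriptions and were not tested.

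**Figure D3:**
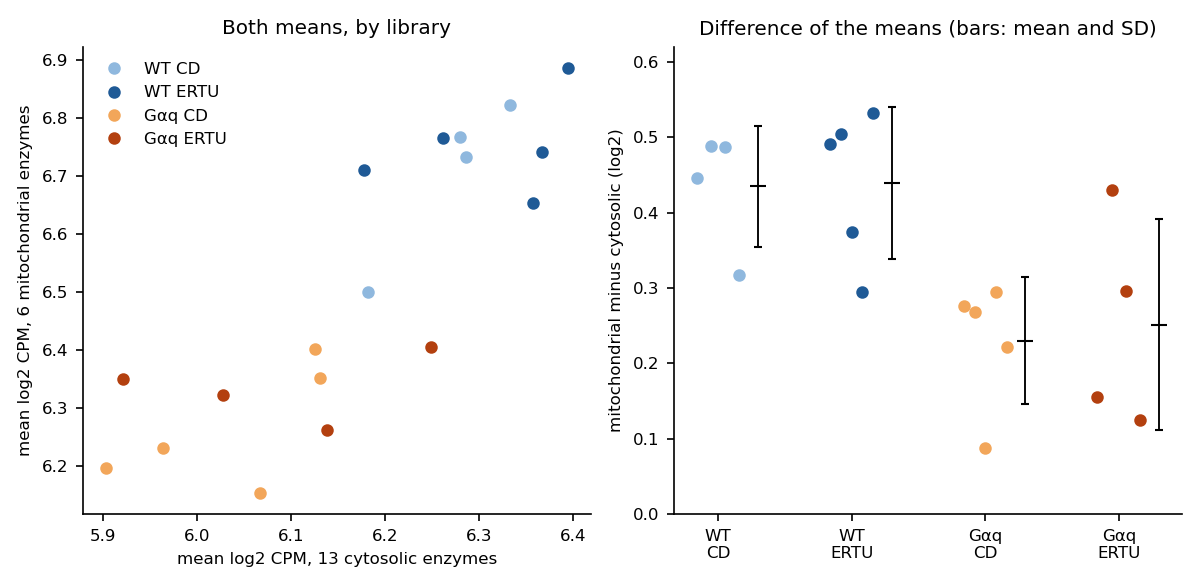
Left, the mean log2 CPM of 6 mitochondrial enzymes (y axis) against that of 13 cytosolic enzymes (x axis) in each library. Right, their difference by group with mean and SD, near 0.43 and 0.44 in the WT groups and 0.23 and 0.25 in the Gαq groups.

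Within each diet, fewer members passed the threshold. On CD, 9 of 36 members were called by genotype (8.10% of all genes). Of these 8 were lower, namely Sod2, Prdx3, Nnt, Prdx6, Txnrd1, Gclm, Nqo1 and Msra (4.10% of all genes were lower), and Gpx8 was higher (4.00% of all genes were higher). On ERTU, 8 of 36 were called (8.17% of all genes). Of these 7 were lower, namely Sod2, Prdx3, Nnt, Prdx1, Txnrd1, Nqo1 and Msra (4.24% of all genes), and Gpx3 was higher (3.93% of all genes). These comparisons set different libraries against each other. Both came from the same fit of all libraries and shared its estimate of the spread, so their calls are not independent. The Wald test of DESeq2 called 11 members on CD and 13 on ERTU, where it called 10.5% and 10.9% of all genes.

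Nqo1 changed by -1.28 ± 0.17 (log2, SE) on CD and -0.90 ± 0.17 on ERTU. Nnt changed by -1.16 ± 0.19 and -0.77 ± 0.19, Sod2 by -0.45 ± 0.11 and -0.55 ± 0.11, and Prdx3 by -0.37 ± 0.09 and -0.52 ± 0.09. None of these genes was called by the interaction test, described with the diet effect. The count on CD rested on few libraries. Without the 4 libraries with low Pdk4, which leaves 2 Gαq CD and 3 WT CD libraries, only Nqo1 was called on CD (adjusted p = 0.0235), while 9 members were called on ERTU and 1.9% and 8.57% of all genes were. In that fit the change of Prdx6 on CD was -0.22 in place of -0.37.

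The count on CD was 5 without library 2, where 5.16% of all genes were called. It was also 5 without the libraries with the highest atrial markers, where 6.71% of all genes were called and Prdx6, Txnrd1, Gclm and Gpx8 were not (adjusted p from 0.0524 to 0.223). On ERTU, Prdx1 was not called without either set of libraries (adjusted p = 0.0524 without those with low Pdk4 and 0.104 without those with the highest atrial markers). Gpx8 was called on ERTU without either set (adjusted p = 0.0406 and 0.00916), and Gclm without those with low Pdk4 (adjusted p = 0.0446). On CD, Gclm was not called without library 1, 2, 5, 7, 8 or 9 (adjusted p from 0.0772 to 0.125), Gpx8 without library 1, 2, 5, 7 or 8 (adjusted p from 0.0514 to 0.0898), Prdx6 without library 1, 2, 4, 7, 8 or 9 (adjusted p from 0.0700 to 0.126), and Msra without library 2 (adjusted p 0.0548). On ERTU, Prdx1 was not called without library 1, 2, 4, 6, 7, 10, 13, 14, 15, 17, 18 or 20 (adjusted p from 0.0513 to 0.135), and Gpx3 without library 12, 13, 15, 16, 18 or 20 (adjusted p from 0.0502 to 0.144). Other members passed in some of the fits without 1 library. On CD these were Cat without library 4 or 10 (adjusted p from 0.0313 to 0.0392), Prdx4 without library 14 (adjusted p 0.0488) and Txn2 without library 5 (adjusted p 0.0377). On ERTU they were Gclm without library 4 or 15 (adjusted p from 0.0235 to 0.0462), Gpx1 without library 17 (adjusted p 0.0363), Gpx8 without library 4, 5, 6, 8, 14 or 17 (adjusted p from 0.00875 to 0.0499) and Prdx6 without library 14 or 16 (adjusted p from 0.0282 to 0.0383).

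ERTU was compared with CD over both genotypes and within each one. The interaction tested the difference between those effects in Gαq and in WT. No member was called in any of these by edgeR's quasi-likelihood test, in which the share of all genes called was 0.00% by diet, 0.00% for ERTU in WT hearts, 0.00615% for ERTU in Gαq hearts and 0.00% by the interaction. The Wald test of DESeq2 and limma also called 0 members in each. At an unadjusted p under 0.05 there were 0 of 36 members by diet (7.7% of all genes), 1 for ERTU in WT hearts (2.24%), 1 for ERTU in Gαq hearts (7.62%) and 0 by the interaction (1.92%). The median log2 change of the members was 0.05 by diet, and that of all genes was 0.00. By diet, 29 of 36 members had a change above 0, against 49.5% of all genes. Over the members, estimates with 2 SE on each side spanned -0.39 to 1.05 by diet and -1.25 to 1.47 for the interaction. These are the outermost ends over different genes and not limits of detection. Changes inside the interval of a gene are not excluded by these data.

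**Figure D4:**
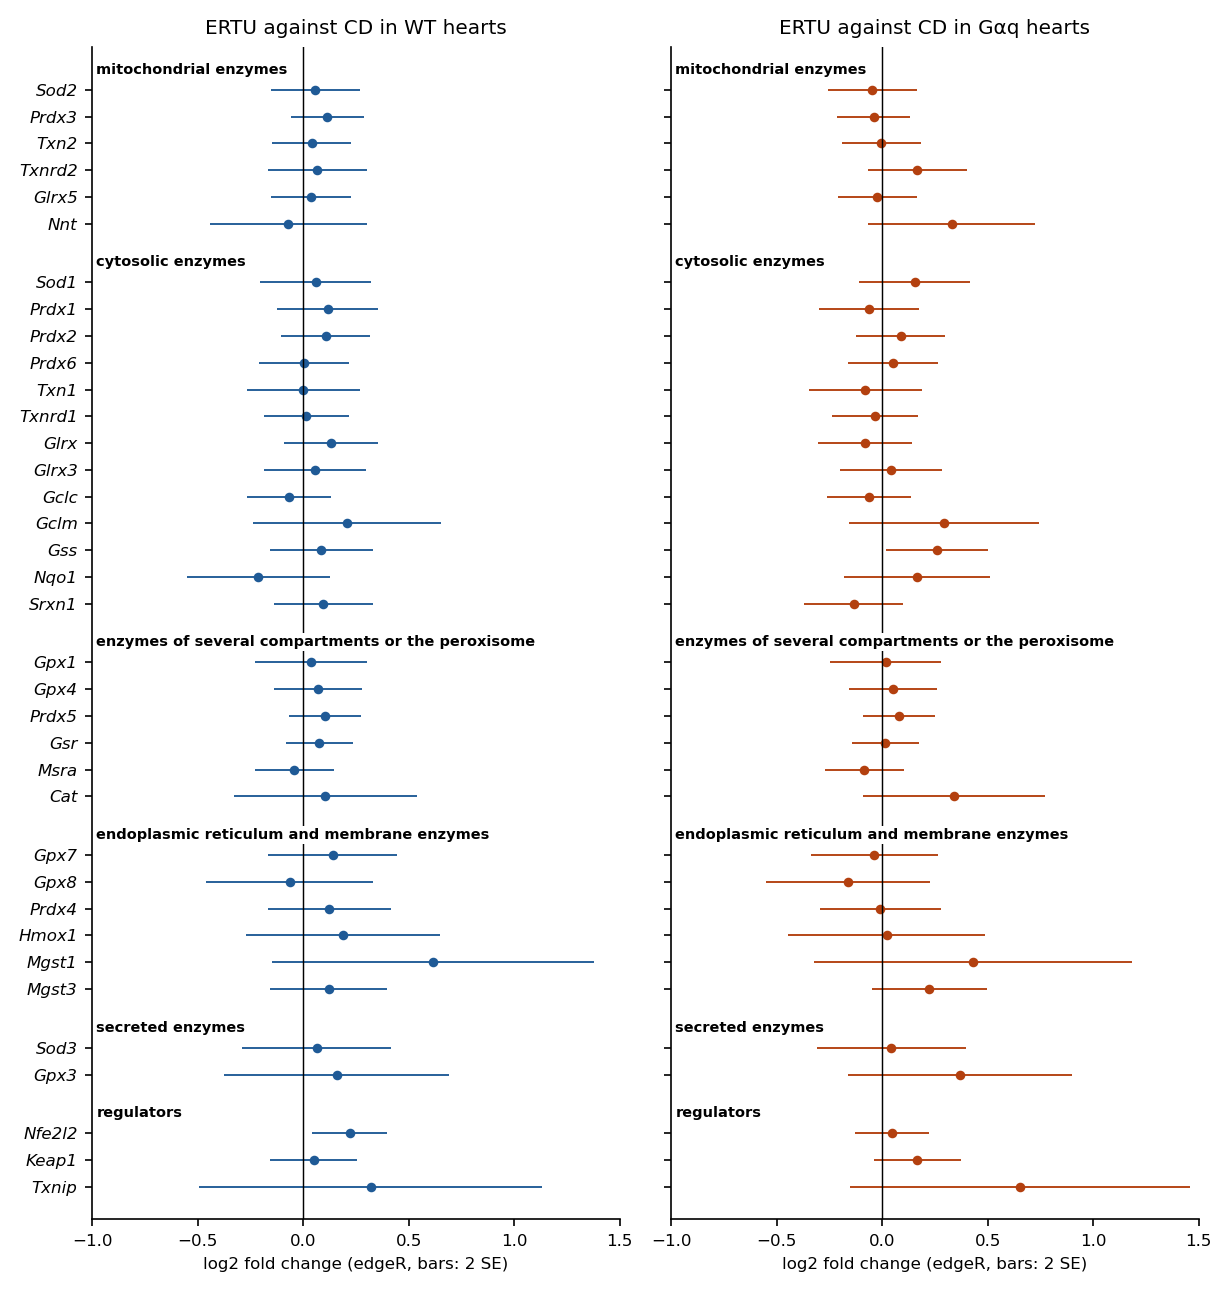
The x axes give the log2 fold change of ERTU against CD in WT hearts (left) and Gαq hearts (right), with bars of 2 SE, for the 36 genes grouped by the place of the protein. Bars of all members but Nfe2l2 (WT) and Gss (Gαq) include 0, and the widest are those of Mgst1 and Txnip.

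By diet the smallest unadjusted p were those of Nfe2l2, Gss and Mgst1. Nfe2l2 was 75.1 ± 3.88 CPM (n = 4, SD) in WT CD and 87.4 ± 7.97 CPM (n = 5, SD) in WT ERTU, where 4 of 5 libraries were above every WT CD library and library 15 was not. Its change was 0.22 ± 0.09 (log2, SE) for ERTU in WT (adjusted p = 1) and 0.05 ± 0.09 for ERTU in Gαq. Gss was 26.1 ± 5.14 CPM (n = 5, SD) in Gαq CD and 31.3 ± 3.83 CPM (n = 4, SD) in Gαq ERTU, a change of 0.26 ± 0.12 (SE), adjusted p = 0.653. Mgst1 was 31.0, 24.6, 20.6 and 44.3 CPM in WT CD, 63.0, 31.0, 31.4, 84.2 and 20.2 in WT ERTU, 26.2, 18.4, 32.8, 14.4 and 42.9 in Gαq CD, and 43.1, 18.2, 39.1 and 45.0 in Gαq ERTU. Mgst1 was highest in WT ERTU libraries 14 and 11 and lowest in Gαq CD library 9, and the groups overlapped. Its change by diet was 0.52 ± 0.26 (SE), adjusted p = 0.652.

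By the interaction the smallest unadjusted p were those of Nqo1, Nnt and Nfe2l2. The log2 difference of Nqo1 on ERTU was -0.21 ± 0.17 (SE) in WT and 0.17 ± 0.17 in Gαq, neither called, and the interaction was 0.38 ± 0.24 (SE), adjusted p = 1.00. Nnt had an interaction of 0.40 ± 0.27 (SE), adjusted p = 1.00, and Nfe2l2 of -0.17 ± 0.13 (SE), adjusted p = 1.00. The 6 mitochondrial enzymes had a median log2 change of 0.05 for ERTU in WT and -0.01 for ERTU in Gαq. The 9 NRF2-driven members had medians of 0.08 and -0.03. The 12 mitochondrial reference genes had medians of 0.10 and 0.05.

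Txnip, which binds and blocks thioredoxin and restrains glucose uptake, was the most variable member on CD. Txnip stood at 1399.5, 1578, 419 and 1479.9 CPM in WT CD, 1816, 1313, 1525, 1676 and 1284 in WT ERTU, 1596, 292, 872, 489 and 1805 in Gαq CD, and 1796, 1238, 1529 and 1798 in Gαq ERTU. On CD the values fell into a low set, in WT library 4 and Gαq libraries 7, 8 and 9 (292 to 872 CPM), and a high set of 5 libraries (1399.5 to 1805 CPM). All 9 ERTU libraries were at 1238 CPM or more, above every library of the low set. The group means were 1219 ± 538 CPM (n = 4, SD) in WT CD and 1011 ± 667 CPM (n = 5, SD) in Gαq CD, and the change by diet was 0.49 ± 0.28 (SE), adjusted p = 0.660, within the spread between libraries. The same 4 libraries were those with low Pdk4. In them Pdk4 was 166 CPM in library 4, 150.4 in library 7, 261 in library 8 and 105 in library 9. Cat was 257, 196, 199 and 220 CPM in these libraries, lower than in all 14 others, where it was at least 308 CPM. Gclm was 30.7, 28.0, 22.9 and 22.7 CPM in them and at least 28.9 CPM in the others. Their part in the effects of diet was not tested beyond leaving them out, after which no member was called by diet, within either genotype or by the interaction.

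**Figure D5:**
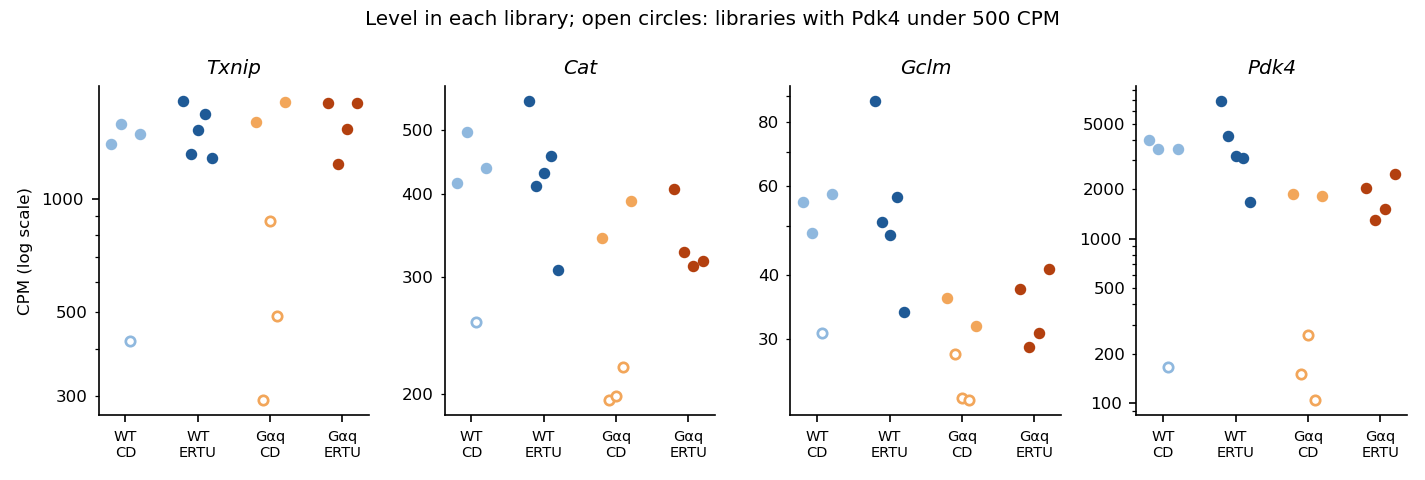
Levels in each library, as CPM on log axes, of Txnip, Cat, Gclm and, as a gene outside the list, Pdk4. Open circles are libraries 4, 7, 8 and 9, with Pdk4 under 500 CPM, which have the 4 lowest values of Txnip and of Cat.

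The members also differ in abundance. Per kilobase of exon (the union of all annotated transcripts), the mean level in WT CD ran from 0.995 CPM per kb for Nnt to 390.3 for Txnip. Prdx3 (239.6), Mgst3 (198), Prdx5 (185), Gpx3 (167), Cat (154) and Prdx2 (127) followed on the same scale. Nqo1 stood at 58.7 CPM per kb. Enzymes of glutathione synthesis were low, at 7.65 CPM per kb for Gclm, 6.95 for Gclc and 4.02 for Gss.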

How the data were processed

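The authors aligned paired reads of poly(A)-selected left ventricle RNA to mouse build mm10 with STAR 2.6.0c and deposited raw counts per Ensembl gene of uniquely aligned reads, made with featureCounts of Subread 1.6.2. A further deposited table holds log2-like values from the variance-stabilizing transformation of DESeq2, used here in an alternative. Symbols came from GENCODE M21 (55190 of 55450 gene IDs matched). Where a symbol had more than 1 ID, that with the longest exon sequence was taken.

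Table columns were matched to the 4 groups by name, and their library numbers are not those of the labels. Counts were filtered with filterByExpr (genes left out held 0.0906% of counts), scaled by TMM and fitted with the quasi-likelihood test of edgeR 4.0.16 in R 4.3.3. Genotype and diet were additive terms of 1 model, and group means gave the 5 other comparisons. Adjustment was by Benjamini-Hochberg over 16270 genes, with calls at an adjusted p under 0.05. P-values measure only the spread between these samples. A prior count of 2 was added for log2 CPM. The steps were tested on simulated data.

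The alternatives tried were size factors by median of ratios, no filter, only the groups compared, limma 3.58.1 on the deposited transformed values, DESeq2 1.42.0 (Wald test), and fits without each library in turn. Fits without the libraries with Pdk4 under 500 CPM, or without that with the highest atrial markers in each group, were chosen after seeing the data.

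All 36 members are named. Values in every library are given for the 12 called members with the largest change by genotype, the mitochondrial enzymes, the regulators, 5 NRF2-driven members, and the 3 members with the smallest p by diet and by interaction. Up to 3 called genes with the largest change are named from each list of other genes. The members and lists were chosen with earlier results of these data known.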

Additional observations from a re-analysis of the deposited data

Results flagged for a closer look

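In 12 of 144 groups of values (36 members in 4 groups), 1 library lay far from the others of its group by the gap to its neighbour as a share of the range of log2 CPM (Dixon's ratio). Chance flags about 1 in 20 groups, or 7.2 of 144. WT CD library 5 was low in Sod2 (529 CPM against 684 to 713, ratio 0.863), Sod1 (148 against 177 to 179, ratio 0.952) and Prdx2 (305 against 416 to 418, ratio 0.984). Library 5 also had the highest atrial and fibroblast marker sums of its group (363 and 3149 CPM), whose part in these values was not tested. WT CD library 4 was low in Txnip (419 CPM against 1399.5 to 1578, ratio 0.91).

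WT ERTU library 11 was high in Nnt (8.99 CPM against 5.87 to 6.41, ratio 0.795) and Msra (59.2 against 53.0 to 54.7, ratio 0.718). WT ERTU library 15 was low in Nfe2l2 (73.5 CPM against 89.1 to 93.6, ratio 0.795). Gαq CD library 8 was high in Srxn1 (36.4 CPM against 30.8 to 31.3, ratio 0.905). In Gαq ERTU, library 16 was high in Glrx5 (85.5 CPM against 73.9 to 75.0, ratio 0.902) and Prdx6 (208 against 169 to 173, ratio 0.886). Library 17 of that group was low in Glrx3 (42.7 CPM against 54.0 to 55.7, ratio 0.884) and Mgst1 (18.2 against 39.1 to 44.9, ratio 0.845).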

How the results depend on the processing

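No called member turned direction by genotype, for Gαq on CD or for Gαq on ERTU under the alternatives run. Of 456 repeats of the 19 genotype calls, 414 stayed past the threshold, as did 192 of 225 repeats for Gαq on CD and 178 of 200 for Gαq on ERTU. Leaving out 1 library at a time gave 15 to 19 members by genotype, 5 to 10 between the CD groups, 6 to 9 between the ERTU groups and 0 for each effect of ERTU and the interaction. The count for Gαq on CD was 1 without the libraries with low Pdk4 and 5 without those with the highest atrial markers. The count for Gαq on ERTU was 13 by the Wald test of DESeq2. The difference between mitochondrial and cytosolic enzymes for Gαq on CD was 0.32 with medians of levels over the enzymes and -0.37 without NRF2-driven enzymes. For Gαq on ERTU it was 0.24 and -0.36. Leaving out 1 library gave -0.24 to -0.17 and -0.25 to -0.15. For ERTU it gave -0.03 to 0.04 in WT and -0.04 to 0.06 in Gαq. For the count without the low-Pdk4 libraries, fewer samples are part of the construction, and otherwise the cause was not tested. Nnt rests on 41 to 165 reads per library. No paired analysis was possible because library numbers in the table run across groups and pair none.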
